A study of Mus musculus with 8 samples.

Results

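The miRNAs mmu-miR-186, mmu-miR-340-5p, mmu-miR-188-5p and mmu-miR-574-3p (miR-186 and so on from here) lie inside protein-coding genes and gave dim signals on arrays of mouse brown adipose tissue. They were taken by name from the miRNA probes of the arrays, and make up 4 of the 566 mouse miRNAs printed there. The members were chosen by their measured difference in probe intensity between cold and room temperature, so that difference is described here with no test. The tissue came from 6 male mice of the strain C57Bl6N, aged 8 weeks, of which mice 1, 2 and 3 spent 24 h at 8 °C and mice 4, 5 and 6 stayed at 21 °C (room temperature). Cy3-labelled total RNA was read on 1-colour Agilent miRNA arrays, with 2 arrays each for mouse 1 and mouse 4, averaged per mouse, and n is 3 mice per group. The labels name no transgene or drug.

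Many miRNAs are cut from the introns of protein-coding genes. The host gene's primary transcript can carry the miRNA hairpin, which the nuclear enzyme Drosha releases and the cytoplasmic enzyme Dicer cuts into a pair of arms. An intronic miRNA may therefore share the promoter of its host or use a promoter of its own, and the arm loaded into an Argonaute protein finds its targets mainly through the seed near its 5′ end. Brown adipose tissue burns fuel to make heat, and cold is its natural stimulus through sympathetic nerves.

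The mature sequences below are shown because the members were named as a group by their genomic setting, and the seeds show whether they could also be read as a target family. They are RefSeq's, on GRCm38.p6, 5′ to 3′, and the seed (bases 2 to 8) is in capitals.
miR-186: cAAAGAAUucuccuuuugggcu
miR-340-5p: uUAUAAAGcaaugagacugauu
miR-188-5p: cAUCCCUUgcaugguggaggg
miR-574-3p: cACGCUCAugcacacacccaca
The seeds of the 4 members all differed from each other. RefSeq names the first of these miR-186-5p, and all 4 array names had a match in the RefSeq miRNA table. The only other mouse miRNA of that table with a member's seed was miR-7061-3p, which shares the seed of miR-188-5p.

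The genomic positions also set the members apart, since each lies in a different host. The mature miR-186 maps to chr3:157544285-157544306 on the plus strand, within the span of Zranb2, a gene for a zinc finger RNA-binding protein that takes part in splicing. Mature miR-340-5p maps to chr11:50069720-50069741 on the plus strand, within Rnf130, which encodes a RING finger ubiquitin ligase. Mature miR-188-5p maps to chrX:7248031-7248051 on the minus strand, within Clcn5, which encodes an endosomal chloride/proton exchanger. Mature miR-574-3p maps to chr5:64970364-64970385 on the plus strand, within Fam114a1. Host and miRNA lie on the same strand in all 4 cases. The table gives gene spans and not exons, so the placement in an intron is background knowledge and was not read from it. GC content ran from 27.3% in miR-340-5p and 40.9% in miR-186 to 59.1% in miR-574-3p and 61.9% in miR-188-5p.

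The members lay above the limit of detection by different margins, and miR-186 and miR-340-5p fell to it in the cold. Signal units are the scanner software's background-subtracted intensities on a linear scale. The mean of the negative control spots was 0.392 ± 0.395 units for cold mice and 0.356 ± 0.286 units for room temperature mice (SD, n = 3). The dimmest probe called detected, meaning that a share above 0.5 of its spots stood well above background, read 10.6 ± 2.30 units on cold arrays and 8.16 ± 1.43 on room temperature arrays (SD, n = 3). Brightness differed between the groups as well. The 75th percentile of each array, used for scaling, came to 793 ± 149.7 units for cold mice against 1085 ± 286, and 182 ± 5.00 against 209 ± 15.3 mouse miRNAs were detected (SD, n = 3). The cold arrays lay in 1 row of the slide and the room temperature arrays in the other, so slide row and group cannot be told apart.

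With all spots, the largest difference among the members was that of miR-186. With the position factor described further on, miR-574-3p differed more. With central spots, the other way of handling position, miR-574-3p and miR-186 differed by 0.89 ± 0.20 and -0.80 ± 0.13 (log2, SE). Relative to the median of all measured miRNAs these central-spot values were 0.71 and -0.98, so their order depended on the reference. The brighter miR-186 probe, A_54_P2360, read 10.5, 12.9 and 15.7 units in cold mice 1, 2 and 3, and 47.1, 32.8 and 62.1 units in room temperature mice 4, 5 and 6. Every cold value lay below every room temperature value, even before scaling. The probe was detected on 0 of the 4 cold arrays and on all 4 room temperature arrays, so with all spots the cold side is a bound. The mean fell from 47.3 ± 14.7 to 13.0 ± 2.58 units (SD, n = 3). On the scaled log2 scale the difference, cold minus room temperature, was -1.40 ± 0.14 (SE), and the level was at least 2.60-fold lower in the cold, where the dim side takes the higher of its own signal and the lowest detected signal of each array. That bound holds for this processing only: the difference was -0.97 with outlier spots kept, -0.80 with central spots, where 3 of 4 cold arrays detected the probe, and -0.15 with the position factor. The second probe for miR-186, A_54_P2359, was detected on 0 cold and 2 room temperature arrays, did not enter the level, and differed by -0.38 (log2).

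The other member that read lower in the cold was miR-340-5p. Its kept probe, A_54_P2557, read 8.63, 11.0 and 11.9 units in cold mice 1, 2 and 3, and 16.1, 16.8 and 27.4 units in room temperature mice 4, 5 and 6. The groups did not overlap. This probe was also detected on 0 of 4 cold arrays and all 4 room temperature arrays. The scaled difference was -0.48 ± 0.13 (log2, SE), from means of 10.5 ± 1.68 and 20.1 ± 6.34 units (SD, n = 3), and the bound was at least 1.26-fold lower in the cold. This bound too holds for this processing only, since the difference was 0.075 with central spots, -0.067 with the position factor and 0.24 with a normexp background. Its other probe, A_54_P2558, with 0 cold and 2 room temperature arrays detected, was left out and differed by only -0.04.

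For miR-188-5p, all 4 probes were detected on all 8 arrays. The unscaled means of its probes were 41.1, 44.2 and 53.9 units in cold mice 1, 2 and 3, and 40.2, 32.8 and 58.2 units in room temperature mice 4, 5 and 6. The groups overlapped, with the highest value in room temperature mouse 6 and the lowest in room temperature mouse 5. The means were 46.4 ± 6.64 and 43.7 ± 13.1 units (SD, n = 3). After division by each array's 75th percentile the groups no longer overlapped: the log2 levels were -3.95, -4.25 and -4.10 in the cold and -4.64, -4.73 and -4.61 at room temperature. The scaled difference was 0.56 ± 0.13 (log2, SE), or 1.48-fold higher in the cold. Without scaling it was 0.12, with an SE of 0.36 that was the same for all 4 members.

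The fourth member, miR-574-3p, also had 4 of 4 probes kept, 3 of them detected on all 8 arrays and A_54_P3156 on 4 cold and 3 room temperature arrays. Its unscaled values were 34.6, 35.4 and 41.5 units in cold mice 1, 2 and 3, and 32.9, 20.9 and 36.6 units in room temperature mice 4, 5 and 6. These overlapped, since mouse 6 exceeded cold mice 1 and 2. The means were 37.2 ± 3.79 and 30.1 ± 8.17 units (SD, n = 3). Scaled log2 levels were -4.24, -4.57 and -4.48 in the cold and -4.97, -5.45 and -5.34 at room temperature, which did not overlap. The scaled difference was 0.82 ± 0.17 (log2, SE), or 1.77-fold higher in the cold. Without scaling it was 0.38, with the same SE of 0.36 as the other members.

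**Figure D1:**
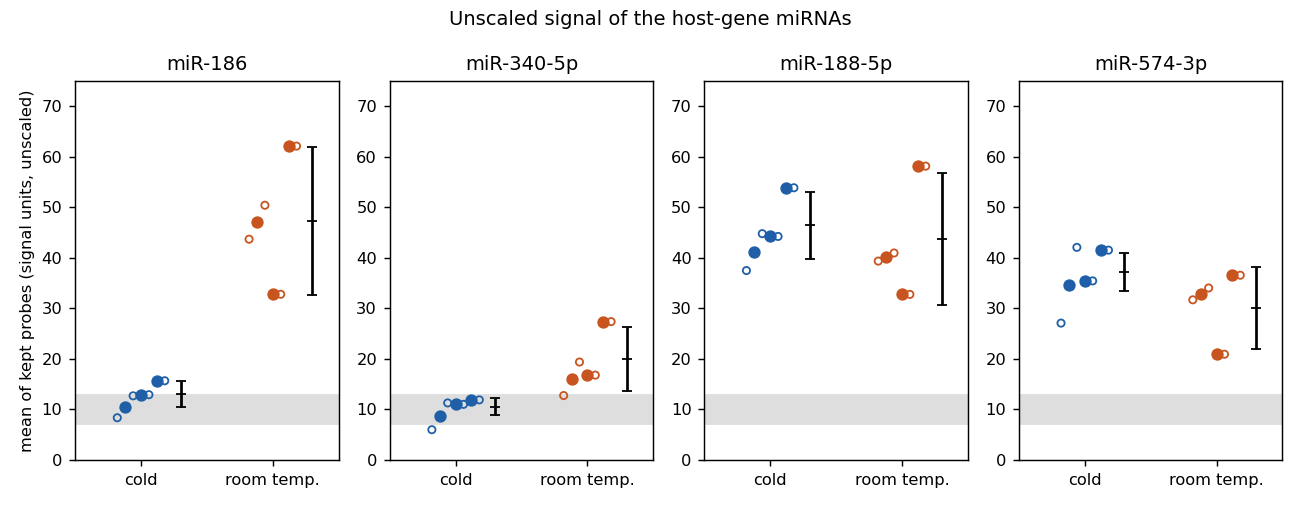
Unscaled signal in units (linear axis) of the kept probes of each member. Filled points are mice and open points single arrays, the bar is the mean ± SD over 3 mice, and the grey band spans the lowest detected probe over the 8 arrays. The cold values of miR-186 and miR-340-5p sit in or beside the grey band, and the groups overlap for miR-188-5p and miR-574-3p.

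On the scaled scale the 3 cold mice and the 3 room temperature mice did not overlap for any of the 4 members. The same held for 73 of all 189 measured miRNAs, or 38.6%, and 15.3% of the 189 passed the limma test at an adjusted p of 0.05 (8.47% higher and 6.88% lower in the cold). That split, 16 higher and 13 lower, depended on the scaling: it was 3 and 37 with scaling to spiked control RNAs, 0 and 13 without scaling, 11 and 17 with the percentile over all probes and 22 and 20 with quantile normalisation. The choice of the members used this comparison, so nothing is read from their count. The repeat arrays show how precise such dim levels are. The second array of mouse 1 read higher than the first by 0.36 (log2) for miR-186, 0.67 for miR-340-5p and 0.44 for miR-574-3p, and differed by -0.01 for miR-188-5p. For mouse 4 the corresponding values were 0.14, 0.54, 0.05 and -0.01. For miR-340-5p the gap between repeat arrays of either mouse was larger than the difference between the groups.

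Probes of the same member did not give the same difference. The 4 probes of miR-188-5p differed by 0.23, 0.60, 0.95 and 0.47 (log2, cold minus room temperature) for spots whose mean grid rows were 76.4, 93.2, 123 and 96.0. The 4 probes of miR-574-3p differed by 1.50, 0.64, 0.74 and 0.41, and the probe with 1.50, A_54_P3156, had the highest mean grid row, 150.8. The grid row is the position of a spot along the long axis of an array, which has 192 rows and 82 columns, and every spot lies at the same place on all arrays.

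The position of a spot moved with its signal, and in opposite ways in the groups. Over 242 probes for other miRNAs, each with a median above 15 units on all arrays, a spot in rows 1 to 16 gave between 0.059 and 0.089 times its own probe's median on the cold arrays. On the room temperature arrays the same rows gave between 0.824 and 1.00 times that median. At the other end, in rows 177 to 192, the cold arrays gave between 0.578 and 1.07 and the room temperature arrays between 0.070 and 0.120. In the middle, in rows 81 to 96, the ranges lay close together, at 1.05 to 1.07 in the cold and 1.08 to 1.13 at room temperature. The ranges of the groups did not overlap in any of these 3 bands, and lay far apart in the first and last. Columns 73 to 82 were dim in both groups, at 0.141 to 0.677 and 0.139 to 0.721.

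**Figure D2:**
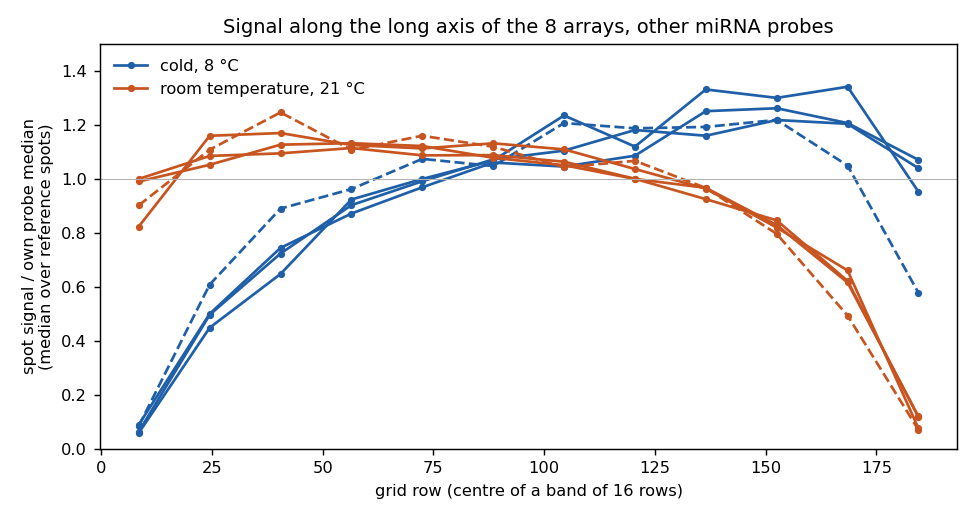
Signal along the grid rows (horizontal axis, bands of 16 rows) as the median ratio of a reference spot to its own probe's median (vertical axis, no unit). Each line is 1 array, dashed for a second array of the same mouse. The cold arrays fall to between 0.059 and 0.089 in rows 1 to 16, and the room temperature arrays to between 0.070 and 0.120 in rows 177 to 192.

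The 20 spots of miR-186 lay mostly at low rows. Of these, 14 were in rows 1 to 64, 5 in rows 65 to 128 and 1 in row 129. In rows 1 to 64 the mean of the spots was 5.23 ± 1.72 units for cold mice against 31.9 ± 8.75 for the others (SD, n = 3), a ratio of 0.164. In rows 65 to 128 it was 14.0 ± 0.898 against 23.4 ± 9.94 units, a ratio of 0.599. These means pool 2 probes. For the kept probe A_54_P2360 alone the ratio was 0.201 in rows 1 to 64 and 0.502 in rows 65 to 128. All 14 spots of the first range had a lower mean in the cold, and in 11 of them the groups of mice did not overlap. The spot in row 129 went the other way, with 63.1 ± 17.5 units in cold mice against 40.0 ± 10.2 at room temperature. The scanner software marked it as an outlier on 3 of the 4 cold arrays and on 0 room temperature arrays, so its high cold readings were left out of the level.

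The spots of miR-340-5p showed the same order. In rows 1 to 64 its 7 spots averaged 7.01 ± 0.373 units in cold mice against 22.8 ± 7.34 in the others, a ratio of 0.308. The ratio was 0.774 over the 9 spots in rows 65 to 128 and 1.73 over the 4 spots in rows 129 to 192. For the kept probe A_54_P2557 alone it was 0.250 in rows 1 to 64 and 0.954 in rows 65 to 128. Single spots in the middle were nearly level between the groups. The spot in row 117 read 18.5 ± 2.35 and 18.9 ± 1.99 units, and the spot in row 122 read 16.2 ± 6.27 and 15.9 ± 6.12 units (cold and room temperature, SD, n = 3).

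For miR-188-5p the ratio of cold to room temperature units was 0.826 over 7 spots in rows 1 to 64, 0.975 over 7 spots in rows 65 to 128 and 1.68 over 6 spots in rows 129 to 192. For miR-574-3p it was 0.972 over 10 spots, 1.16 over 4 spots and 2.31 over 6 spots in the same ranges. All 4 members thus had their lowest ratio at low rows and, where more than 1 spot was printed there, their highest at high rows. The extremes were steep within a single miRNA. The miR-188-5p spot in row 9 read 12.6 ± 2.34 (cold) and 53.4 ± 17.4 units, whereas the spot in row 186 read 57.0 ± 5.00 and 12.1 ± 5.49 units. The miR-574-3p spot in row 190 read 50.4 ± 10.1 and 6.34 ± 3.61 units.

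**Figure D3:**
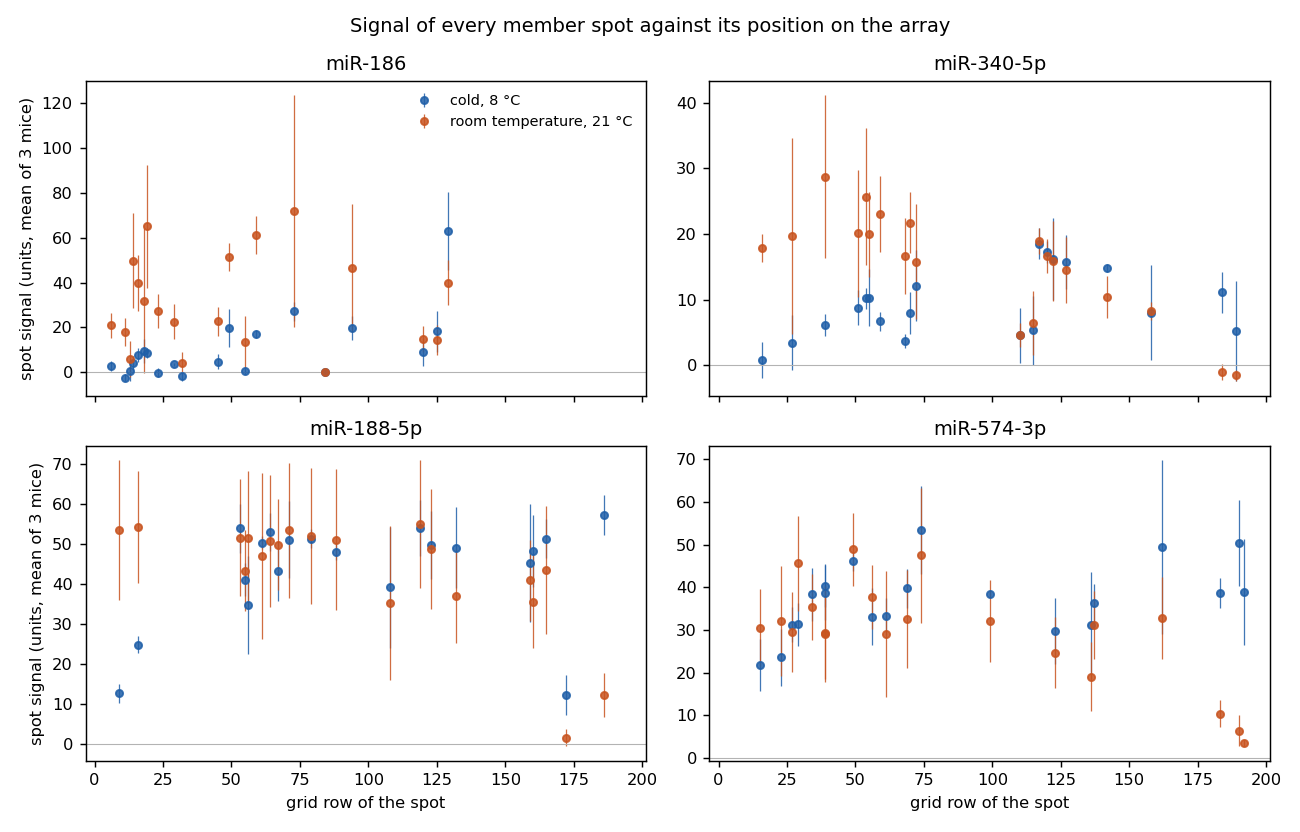
Signal in units (vertical axis, linear) of each of the 80 spots of the members against grid row (horizontal axis). Points are means and bars SDs over 3 mice, outlier spots included. For all 4 miRNAs the room temperature points stand above the cold ones at the lowest rows, as for miR-188-5p in row 9 with 12.6 units in the cold and 53.4 at room temperature, and fall below them in the highest rows that hold a spot.

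Across the 189 measured miRNAs the difference between the groups and the mean grid row of the spots correlated at r = 0.40. These are points across miRNAs on the same 8 arrays and not replicates, so the value is a description. The kept spots of miR-186 had a mean row of 47.7, the second lowest of the 189, and those of miR-340-5p had a mean row of 81.0. The mean rows of miR-574-3p and miR-188-5p were 86.8 and 97.2. Each spot was then divided by a position factor, estimated per array from the 242 probes of other miRNAs, and spots with a factor below 0.3 were left out. The correlation with row was then 0.007 over the same 189 miRNAs. The factor was fitted to the rows of brighter probes of other miRNAs on these arrays. A value near 0 therefore follows largely from the fit and is no check of it for the dim members.

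With the position factor, the difference of miR-186 shrank from -1.40 to -0.15 ± 0.16 (log2, SE). Its log2 levels were -5.09, -4.85 and -4.67 in cold mice 1, 2 and 3 and -4.57, -4.89 and -4.68 in room temperature mice 4, 5 and 6. The groups then overlapped, and the probe was detected on 2 of 4 cold arrays, so no bound applies. The second probe of miR-186 was still left out. Its levels in cold mice 1, 2 and 3 again lay at the floor (-6.64 log2), so its difference of -0.38 is again set by the floor. The difference of miR-340-5p was -0.067 ± 0.15, with overlapping groups. Its second probe, A_54_P2558, now entered as well, and the cold side was still detected on 0 of 4 arrays. The probe A_54_P2557 alone moved from -0.48 to 0.0015 and A_54_P2558 from -0.043 to -0.13. The all-spots value of A_54_P2558 included arrays at the floor. That of miR-188-5p was 0.69 ± 0.14 and that of miR-574-3p was 1.34 ± 0.18, and the groups of both remained apart. For miR-574-3p the corrected levels were -3.63, -4.10 and -3.86 in the cold and -4.97, -5.35 and -5.31 at room temperature.

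A second way of handling position, which used only spots in rows 49 to 144 and columns 9 to 72, gave -0.80 ± 0.13 for miR-186, 0.075 ± 0.15 for miR-340-5p, 0.54 ± 0.13 for miR-188-5p and 0.89 ± 0.20 for miR-574-3p. So the higher cold levels of miR-188-5p and miR-574-3p kept their direction under both, the size of the miR-186 difference depended on which was used, and miR-340-5p had none beyond its SE. Either treatment also moved the typical miRNA. The median difference of all measured miRNAs was -0.02 with all spots, 0.20 with the position factor and 0.18 with the central spots. Relative to that median, the differences with the position factor were -0.35 for miR-186, -0.27 for miR-340-5p, 0.49 for miR-188-5p and 1.14 for miR-574-3p. With the central spots they were -0.98, -0.11, 0.35 and 0.71 in the same order.

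**Figure D4:**
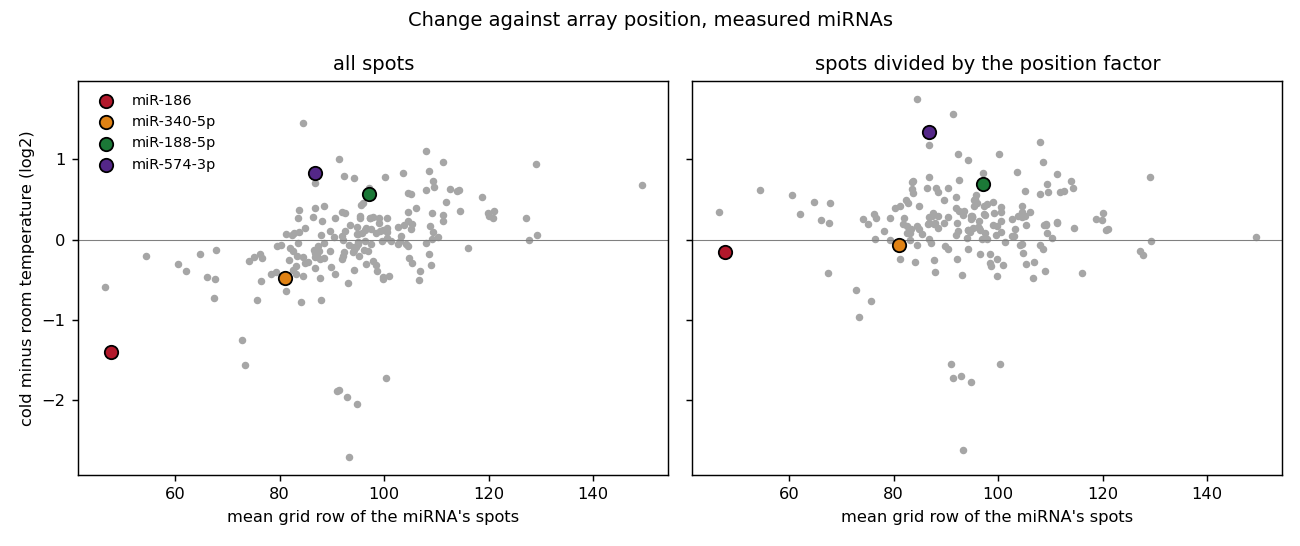
Difference of cold minus room temperature (log2, vertical axis) against the mean grid row of a miRNA's spots (horizontal axis) for the measured miRNAs, with all spots on the left and with the position factor on the right. The members are the large coloured points, and miR-186 moves from -1.40 to -0.15 while miR-574-3p moves from 0.82 to 1.34.

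The scaling also moved the members. Scaling to the spiked control RNAs in place of the 75th percentile gave 0.21 ± 0.21 for miR-188-5p and 0.47 ± 0.23 for miR-574-3p, and -1.75 ± 0.22 and -0.81 ± 0.20 for miR-186 and miR-340-5p. With this scaling the median over all measured miRNAs was -0.38, and without scaling it was -0.46, so the members moved with the other miRNAs. Quantile normalisation left all 4 near the reported values, at -1.48, -0.57, 0.56 and 0.80 for miR-186, miR-340-5p, miR-188-5p and miR-574-3p. A normexp background, which models the background and adds an offset of 50 units, brought the dim pair to -0.10 for miR-186 and 0.24 for miR-340-5p. Under every setting plotted here miR-188-5p and miR-574-3p stayed above 0, at their lowest, 0.12 and 0.38, without scaling. There limma gave all 4 members the same SE, 0.36, so it does not measure the spread of a single miRNA. The unscaled units of both overlapped between the groups.

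**Figure D5:**
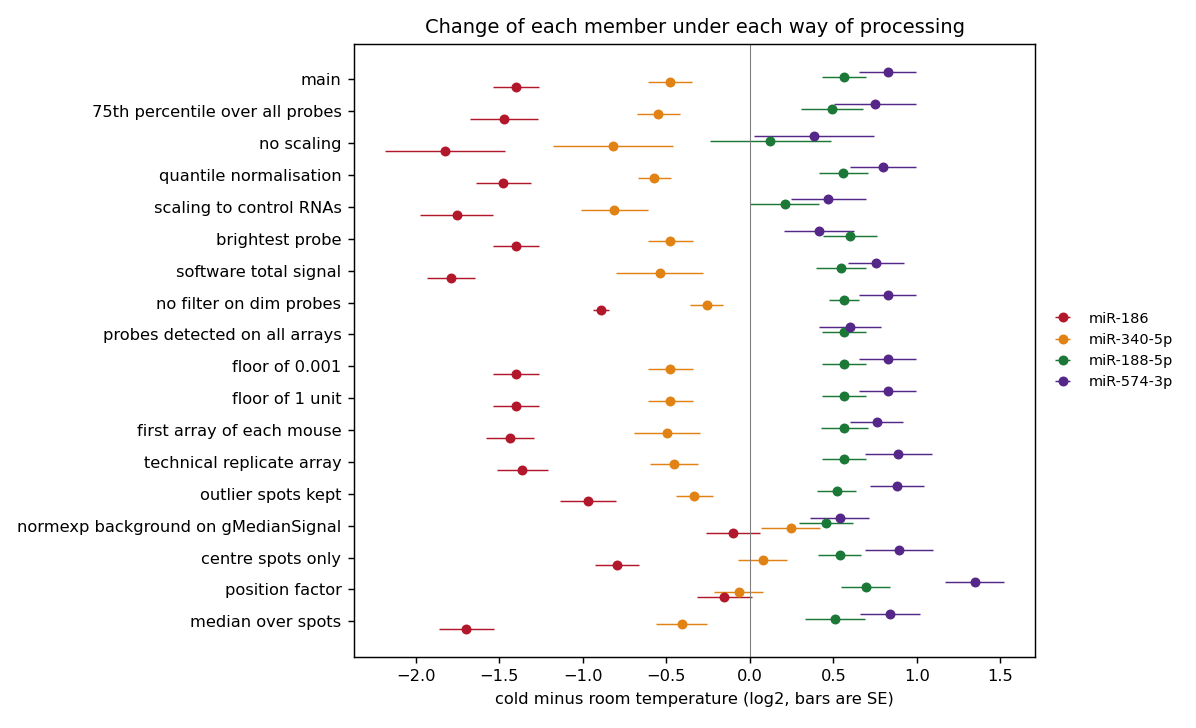
Difference of cold minus room temperature (log2, horizontal axis, bars are SE) of each member under each way of processing (vertical axis, "main" is the reported setting). The spread runs from -1.83 to -0.10 for miR-186, from -0.82 to 0.24 for miR-340-5p, from 0.12 to 0.69 for miR-188-5p and from 0.38 to 1.34 for miR-574-3p. Without scaling, all members have the same SE of 0.36.

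The other arm of each member's hairpin is cut from the same precursor and was not used to choose the members. The array's miR-186*, the other arm of that hairpin, was detected on 0 of 8 arrays, at 1.68 ± 0.443 (cold) and 3.03 ± 0.558 units (SD, n = 3). The same was true of miR-188-3p, at -0.630 ± 0.685 and -0.775 ± 0.140 units. The other arm of miR-340, miR-340-3p, averaged 14.8 ± 3.79 (cold) and 25.7 ± 5.81 units (SD, n = 3), with a difference of -0.39 ± 0.16 (log2, SE) that did not pass (limma, adjusted p = 0.142). With the position factor its direction turned, to 0.32 ± 0.20 (limma, adjusted p = 0.303). The other arm of miR-574, miR-574-5p, averaged 54.3 ± 7.43 and 63.8 ± 10.6 units, a scaled difference of 0.15 ± 0.13 (limma, adjusted p = 0.439), or 0.42 ± 0.16 with the position factor (limma, adjusted p = 0.101). Whether the arms of a hairpin differed from each other in their response was not tested.

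Of the listed Clcn5 hairpins, the 5 found in the RefSeq miRNA table lie within 10815 bases of the X chromosome, and miR-660 was not found there. Among the 5, the hairpin of miR-188 stands 345 bases from that of miR-532. The sequences of its measured neighbours with a table entry under the same name are printed to show that they do not share the miR-188-5p seed.
miR-362-5p: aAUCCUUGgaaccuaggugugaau
miR-362-3p: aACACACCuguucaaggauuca
In units, miR-362-3p averaged 50.8 ± 15.2 in the cold and 57.5 ± 15.8 at room temperature, and miR-362-5p averaged 15.8 ± 4.95 and 24.4 ± 6.92 (SD, n = 3). Their scaled differences were 0.24 ± 0.14 (limma, adjusted p = 0.296) and -0.13 ± 0.15 (limma, adjusted p = 0.548), and that of miR-500 was 0.36 ± 0.25 (limma, adjusted p = 0.351). With the position factor these became 0.34 ± 0.15, 0.45 ± 0.17 and 0.73 ± 0.26, with adjusted p from limma of 0.163, 0.104 and 0.088. All lay above 0, as did 143 of the 189 miRNAs measured with all spots, whose median was then 0.20, so nothing is read from that direction. The probes of miR-501-3p, miR-501-5p and miR-532-3p were detected on 0 of 8 arrays. A dim miR-532-5p, at 9.77 ± 2.05 and 14.0 ± 4.14 units, was detected on 3 arrays of each group and entered only with the position factor, where it differed by 0.13 ± 0.13 (limma, adjusted p = 0.551).

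Of the 11 listed other arms and Clcn5 neighbours on the arrays, 5 were measured. By limma, 0 of the 5 passed at an adjusted p of 0.05, and 1, miR-340-3p, had an unadjusted p below that. With the position factor 6 were measured, and by limma 0 passed, with 3 at an unadjusted p below 0.05. Over the alternatives of processing, the lowest and highest differences were -0.72 and 0.32 for miR-340-3p, -0.29 and 0.63 for miR-574-5p, -0.20 and 0.37 for miR-362-3p, -0.52 and 0.45 for miR-362-5p, and -0.076 and 0.73 for miR-500, so a direction is given for none of them.

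A wider list held the miRNAs whose RefSeq precursors were all found by name and placed within a protein-coding gene on the same strand. Of the 566 array names, 408 matched a precursor and 136 met that rule. The list is incomplete. Names without a match, such as miR-106b and miR-103, could not enter, and no host was found for miR-467a, whose family is placed in Sfmbt2 below. The shares given here hold for this list only. Of the 136 listed, 46 were measured, the 4 members among them, and the members are left out of the counts that follow. Of the other 42, miR-93, in the Mcm7 gene with its cluster partners, was called higher and miR-34b-5p, of a family known as targets of p53, was called lower in the cold (4.76%, beside 15.3% of all 189). The median difference of the 42 was 0.04, against -0.02 for all 189, and 22 of the 42 and 90 of the 189 were above 0. With the position factor the list without the members had 45 measured miRNAs, 6 called higher and 1 lower (15.6%, beside 18.6% of all 199, of which 15.6% were higher and 3.02% lower), and its median was 0.25, against 0.20 for the 189 measured before. Of the 45, 37 were above 0, beside 143 of the 189.

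Of these 2, the call of miR-93 depended on which spots were used. That of miR-34b-5p did not, but its cold level rested on the floor. The level of miR-93 was higher in the cold by 0.62 ± 0.14 (limma, adjusted p = 0.022) and by 0.64 ± 0.18 with the position factor (limma, adjusted p = 0.044), but differed by -0.06 with central spots alone (limma, adjusted p = 0.869). The level of miR-34b-5p, detected on 0 cold and 4 room temperature arrays at 5.41 ± 0.667 and 18.6 ± 3.38 units (SD, n = 3), had a bound of at least 1.28-fold in the direction of lower cold values (limma, adjusted p = 0.011). Its fitted difference was -0.75 ± 0.12 with all spots, -0.77 ± 0.14 with the position factor (limma, adjusted p = 0.014) and -1.06 with central spots (limma, adjusted p = 0.017). With all spots miR-34b-5p was at the floor on 3 arrays, and cold mice 2 and 3 had the same level of -6.64 (log2). The floor thus narrows its spread over the cold mice, and the SE and p carry that limit. With a normexp background 0 of the 46 measured host-list miRNAs, here with the members included, passed by limma. Members aside, 25 miRNAs were called with all spots, and 20 of them were also called with the position factor. With central spots 8.99% of all 189 passed, 7.41% higher and 1.59% lower in the cold.

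Over the 6 mice, the measured miRNAs whose log2 levels, centred on their own mean, followed each member most closely were named by the root mean square (RMS) of the differences. These levels are those of all spots and contain the group difference by which the members were chosen. A close miRNA is thus mainly one with a like difference, and no shared regulation is read from it. For miR-186 these were miR-24-2* (RMS 0.26 log2), miR-199a-3p (0.33) and miR-214 (0.35), the last pair being miRNAs of mesenchymal cells from a shared transcript. For miR-340-5p they were miR-30e (0.08), miR-149 (0.10) and miR-374 (0.13). For miR-188-5p they were miR-467e* (0.09), miR-193b (0.13) and miR-30d (0.15). For miR-574-3p they were miR-466f-3p (0.08), miR-467a-1* (0.09) and miR-466g (0.11), all of families clustered in an intron of Sfmbt2. The RMS values of miR-186 were the widest. Some of these miRNAs also moved with array position: miR-30e had a mean row of 66.2 and differed by -0.47 with all spots and by 0.25 with the position factor. The closest to miR-186, miR-24-2*, went from -1.56 to -0.96, whereas miR-186 went to -0.15. Both miR-24-2* and miR-467e* were at the floor on 3 arrays.

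Unscaled sums of some cell type markers also differed between the groups, on cold arrays that were dimmer as a whole (75th percentile 793 against 1085 units). The summed unscaled signal of the 6 striated muscle miRNAs lay between 1947 and 6664 units in the cold mice and between 10508 and 24322 units in the room temperature mice, and 3 of the 4 that were measured were called lower in the cold, 2 with the position factor and 0 with central spots, where all 4 had an unadjusted p below 0.05 (limma, median difference -1.92, -1.71 and -1.59). The 5 stromal and smooth muscle miRNAs summed to between 529 and 864 units in the cold and between 1157 and 1786 at room temperature, with 2 of 4 measured called lower. By limma with the position factor, 0 of these 4 were called (1 at an unadjusted p below 0.05), and miR-199a-3p and miR-214 went from -0.77 and -0.75 to -0.28 and -0.41. The 6 leukocyte miRNAs summed to between 459 and 1019 and between 1148 and 1761 units, with 0 called by limma and 1 at an unadjusted p below 0.05. Their median scaled difference was -0.35 with all spots, -0.18 with the position factor and -0.06 with central spots (log2). Under either position treatment 0 leukocyte miRNAs were called and 0 had an unadjusted p below 0.05 (limma). The 6 brown fat miRNAs were all measured, with sums of 6505 to 11514 and 7963 to 13661 units. By limma 2 were called higher, 3 with the position factor and 2 with central spots. The neural (0 of 2) and epithelial (0 of 5) miRNAs were detected on no array. In a piece of tissue, fewer cells of a type and less of a miRNA per cell cannot be told apart, and the part of these cell types in the members' differences was not tested.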

How the data were processed

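The deposited files hold each array's scanner output, with spot intensity after background subtraction on a linear scale; per the file headers the authors' software was Agilent Feature Extraction 10.7.3.1 (9.5.3.1 per the submitters' processing notes). The deposited value table held the same intensities (largest difference 0) and added nothing. Of 11540 miRNA spots per array none was saturated. Spots marked as outliers were left out and spots of a probe averaged. Probe means were scaled to the array's 75th percentile of those 267 of 1712 probes that all 8 arrays detected, raised to a floor of 0.01 and turned into log2 values. A probe entered if it was detected (a share above 0.5 of its spots) throughout 1 group or both (329 probes, 189 miRNAs), and a miRNA is the mean of its kept probes. Of the members' 12 probes, 10 were kept. Arrays of a mouse were averaged, and limma 3.58.1 (R 4.3.3) with Benjamini-Hochberg adjustment over the 189 gave SEs and, for miRNAs other than members, adjusted p-values. The position factor took bands of 8 rows and 4 columns.

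The members, lists and tests were chosen with earlier results of these data known. Named besides the members were their other arms and Clcn5 neighbours, the 3 miRNAs closest in pattern to each member, up to 5 called host-gene miRNAs per direction and the marker lists. With all spots, the lists of erythroid, endothelial and liver miRNAs had 0 called by limma of 3, 2 and 1 measured, with 2, 0 and 1 at an unadjusted p below 0.05. With the position factor 2 of the 3 erythroid miRNAs were called higher in the cold by limma (median difference 0.83). With central spots 0 were called and 3 had an unadjusted p below 0.05 (limma, median difference 0.73). The limma and position steps were also run on simulated data, with outcomes taken over all miRNAs, so that run is no check for the dim members. The number of arrays limits the precision.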

Additional observations from a re-analysis of the deposited data

How the results depend on the processing

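Alternatives for position (central spots, position factor), the median over spots and a normexp background on the median spot signal were chosen after seeing the data, the last because the files hold no mean signal. Of all 189 miRNAs, 29 passed, and the count was 13 without scaling, 5 without the filter on dim probes, 16 with probes detected on all arrays, 6 with normexp and 17 with central spots. The host list's count, 6 with the 4 members included, became 1, 2, 2 and 0 (limma, with 8 at an unadjusted p below 0.05) under the first 4 of these and 11 with quantile normalisation. Only 2 of the 6 were not members, and the members were chosen on this comparison, so nothing is read from these host-list counts. The miR-186 difference of -1.40 was -1.83 without scaling, -1.75 scaled to control RNAs, -1.79 by the software's total signal, -0.89 without the filter, -0.97 with outlier spots kept, -0.10 with normexp, -0.80 and -0.15 with central spots and the position factor, and -1.70 by the median. That of miR-340-5p was -0.82, -0.81, -0.26 (no filter), -0.33 (outliers kept), 0.24 (normexp), 0.075 (central spots) and -0.067 (position factor). That of miR-188-5p was 0.12, 0.21 and 0.69 (no scaling, control RNAs, position factor). That of miR-574-3p was 0.38, 0.47, 0.41 (brightest probe), 0.60 (probes detected on all arrays), 0.54 (normexp) and 1.34. With probes detected on all arrays miR-186 and miR-340-5p had no value. Among the neighbours, direction turned without scaling for miR-574-5p (-0.29), miR-362-3p (-0.20) and miR-500 (-0.076), with control RNAs for miR-574-5p (-0.20) and miR-362-3p (-0.12), without the filter for miR-362-3p (-0.035), with normexp for miR-340-3p (0.23) and miR-362-5p (0.29), with central spots for the same pair (0.17 and 0.17) and with the position factor (0.32 and 0.45). The cause of these changes was not tested.

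Leaving out 1 mouse at a time gave 8 to 33 calls (8 without mouse 6, 11 without mouse 2, 13 without mouse 5, 14 without mouse 3). The host list had 2 to 6 with the members included, and nothing is read from that count. The member differences were then -1.49 to -1.33 for miR-186, -0.57 to -0.43 for miR-340-5p, 0.49 to 0.64 for miR-188-5p and 0.73 to 0.97 for miR-574-3p. Other floors, the 75th percentile over all probes, and single arrays of mice 1 and 4 moved no member by more than the spread between mice. Of the 3 closest miRNAs per member, at least 1 was kept when a mouse was left out. No paired analysis was possible because the groups share no mouse number. The cold levels of miR-186 and miR-340-5p are limited by the lowest detected signal.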
